A study of Mus musculus with 18 samples.

Results

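Long noncoding RNAs were followed across nuclear and total RNA of mice carrying the R388W allele of Nup93, a structural protein of the nuclear pore. The 9 were chosen by name, and all 9 had a row among the 24602 genes of the count table: Malat1, Neat1, Kcnq1ot1, Meg3, Rian, Miat, Gas5, Snhg1 and Snhg12. Malat1 is a very abundant transcript that sits in nuclear speckles, bodies rich in splicing factors. Neat1 is the RNA scaffold of paraspeckles, nuclear bodies built on its long isoform. Kcnq1ot1, Meg3 and Rian are transcribed from imprinted domains, so that normally a single parental allele is expressed, and Miat is a nuclear RNA best known from neurons. Gas5, Snhg1 and Snhg12 carry small nucleolar RNAs (snoRNAs), guides for the chemical modification of ribosomal RNA, in their introns. Spliced RNAs of such hosts are usually exported, meet the ribosome and are short-lived because nonsense-mediated decay, a quality control tied to translation, removes them.

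The RNA-seq data held 18 libraries, 3 in each of 6 groups. Nuclear_Hom and Total_Hom came from Nup93 R388W/R388W mice, Nuclear_Het and Total_Het from Nup93 R388W/+ mice, and Nuclear_WT and Total_WT from wild-type mice, with 129S1/SvlmJ as the labelled strain. The series text named podocytes, the filtering epithelial cells of the kidney glomerulus, whereas the sample labels said only mouse tissue. Age and sex were not given in the sources used here. Nor did the labels tie the libraries within a group to different animals, so each p-value covers library-to-library spread alone, and this may be technical.

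Depth as used was 17.4 to 23.5 M counts per library. For Total_WT replicate 1 the 9 nuclear columns, summed for each gene, had first been taken off, which left 19034520 of 200140709 deposited counts. Nup93 itself averaged between 15.9 CPM (TMM-scaled counts per 1e6 counts) in Nuclear_WT and 22.6 CPM in Nuclear_Het, a count that does not show whether the R388W allele was present. Podocyte markers took 0.0379% to 0.0666% of counts as group means and proximal tubule markers 3.35% to 5.22%, so tubule transcripts outweighed those of podocytes in all 6 groups. Xist, the RNA of the inactive X chromosome, averaged 504, 516 and 346 CPM in Nuclear_Hom, Nuclear_Het and Total_WT, against 1.25, 0.624 and 0.538 CPM in Total_Hom, Total_Het and Nuclear_WT. The 4 Y-linked genes ran the other way, with summed group means of 0.609 to 2.59 CPM in the 3 groups with high Xist and 156 to 162 CPM in the others. Sex therefore cannot be told apart from fraction in any comparison of nuclear with total RNA, nor from genotype in any comparison with WT. The comparisons of Hom with Het within a fraction were matched for Xist, though marker sums of cell types differed between them. Counts of Rn45s, which gives the precursor of ribosomal RNA, made up 7.12% of Total_Hom replicate 2 and 0.110% to 1.02% in the other 17 libraries.

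Per kilobase of the deposited gene length, Malat1 had the highest level of the 9, with 302 CPM per kb over the 18 libraries. Neat1 followed with 29.2, Snhg1 with 21.8, Snhg12 with 12.6 and Gas5 with 9.33 CPM per kb. Kcnq1ot1 stood at 0.334, Rian at 0.161, Meg3 at 0.105 and Miat at 0.0194 CPM per kb. By CPM, Malat1 ranked 23 and Neat1 164 among the 15410 genes tested over all libraries. Rian had 3 to 17 counts per library and Miat 1 to 9, so that Miat passed the low-count filter in no main fit. Rian failed it in the main fit of total RNA.

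The split between nuclear and total RNA differed between the genotype groups, although sex cannot be told apart from genotype where WT is compared. In Nuclear_Hom against Total_Hom, 3 of 8 tested members were higher and 3 lower at an adjusted p under 0.05 in edgeR's quasi-likelihood test, where 60.3% of all genes were called, 30.5% higher and 29.8% lower. In Nuclear_Het against Total_Het, 5 of 8 were higher and 0 lower, with 63.6% of all genes called, 33.4% higher and 30.2% lower. In Nuclear_WT against Total_WT, 0 of 8 were higher and 3 lower, with 61.7% of all genes called, 30.9% higher and 30.8% lower. Scaling by library totals alone moved the share of calls that were higher to 77.3% in Het, where TMM gave 52.5%, and to 25.4% in WT, where TMM gave 50.1%, and it turned no member's called direction in these 3 comparisons.

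**Figure D1:**
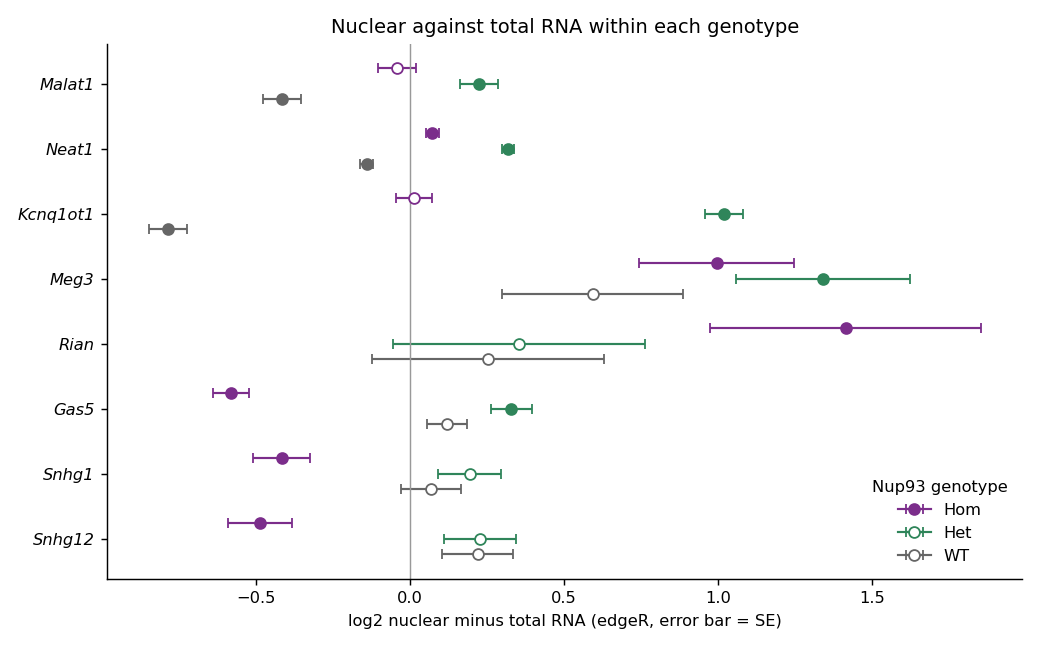
Log2 difference of nuclear minus total RNA for 8 long noncoding RNAs in Hom, Het and WT, as points with their SE; filled points passed the adjusted p threshold of 0.05 and open points did not. Malat1, Neat1 and Kcnq1ot1 lie to the right in Het and to the left in WT, while Gas5, Snhg1 and Snhg12 lie to the left in Hom.

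Malat1 was higher in nuclear than in total RNA of Het, lower in WT, and showed no called difference in Hom. Its 3 libraries read 2254, 1867 and 2115 CPM in Nuclear_Hom, against 2167, 2182 and 2073 CPM in Total_Hom. They read 2275, 2275 and 2540 CPM in Nuclear_Het, against 1999, 2048 and 2026 CPM in Total_Het. They read 1792, 1703 and 1719 CPM in Nuclear_WT, against 2296, 2420 and 2237 CPM in Total_WT. The fractions overlapped in Hom and did not overlap in Het or WT. How often groups of 3 libraries stand apart among all genes was not counted, here and for the other members. The log2 difference, nuclear minus total, was -0.04 ± 0.06 (SE) in Hom (edgeR adjusted p = 0.578), 0.22 ± 0.06 in Het (edgeR adjusted p = 0.00632) and -0.42 ± 0.06 in WT (edgeR adjusted p = 5.22e-05). Ordered by mean, Nuclear_Het (2363 CPM) and Total_WT (2318 CPM) overlapped at the top, Total_Hom (2140 CPM), Nuclear_Hom (2078 CPM) and Total_Het (2025 CPM) followed with overlap between neighbours, and Nuclear_WT (1738 CPM) lay below all others.

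Within nuclear RNA, Malat1 exceeded WT by log2 0.26 ± 0.08 in Hom (edgeR adjusted p = 0.0320) and by 0.45 ± 0.08 in Het (edgeR adjusted p = 0.00248). These comparisons share the WT libraries. The first call was lost when only the Hom and WT libraries were fitted (edgeR adjusted p = 0.0522) and when any one of 5 of the 6 libraries was left out, with edgeR adjusted p of 0.0601, 0.0931 and 0.0871 without Nuclear_WT replicates 1, 2 and 3, and of 0.0870 and 0.0868 without Nuclear_Hom replicates 1 and 3. Within total RNA the direction was the other one, lower than WT by log2 -0.11 ± 0.03 in Hom (edgeR adjusted p = 0.0272) and by -0.19 ± 0.03 in Het (edgeR adjusted p = 0.00190). The Hom value was not called when only the Hom and WT libraries were fitted (edgeR adjusted p = 0.0650), with all 18 libraries in 1 fit (edgeR adjusted p = 0.128) or with the deposited column of Total_WT replicate 1 (edgeR adjusted p = 0.368). Between Hom and Het, which were matched for Xist, Malat1 differed by -0.19 ± 0.08 in nuclear RNA (edgeR adjusted p = 0.112) and by 0.09 ± 0.03 in total RNA (edgeR adjusted p = 0.0596), and neither was called. With all 18 libraries in 1 fit the nuclear value was called (-0.19, edgeR adjusted p = 0.0269). The total RNA value was called in 6 other settings, and also without Total_Hom replicate 2, where it was 0.07 (edgeR adjusted p = 0.00378), and without Total_Hom replicate 3, where it was 0.11 (edgeR adjusted p = 3.17e-07).

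Neat1 showed small differences that were tight between libraries. It read 636, 627 and 640 CPM in Nuclear_Hom, against 602, 606 and 601 CPM in Total_Hom. It read 654, 657 and 667 CPM in Nuclear_Het, against 521, 544 and 521 CPM in Total_Het. It read 570, 581 and 580 CPM in Nuclear_WT, against 620, 645 and 643 CPM in Total_WT. In none of the genotypes did the fractions overlap, nuclear being the higher one in Hom and Het and the lower one in WT. The log2 differences were 0.07 ± 0.02 in Hom (edgeR adjusted p = 0.00110), 0.32 ± 0.02 in Het (edgeR adjusted p = 1.03e-31) and -0.14 ± 0.02 in WT (edgeR adjusted p = 4.98e-10). The Hom value was not called with library totals alone (0.06, edgeR adjusted p = 0.0873). Reads of the short and long isoforms of Neat1 fall on 1 row of the table, and the long isoform and Malat1 end in structures other than a poly(A) tail, while the library kit was one for mRNA. What that step did to their counts was not tested.

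Across genotypes Neat1 had the directions of Malat1. In nuclear RNA it was higher than in WT by log2 0.14 ± 0.02 in Hom (edgeR adjusted p = 1.35e-07) and 0.19 ± 0.02 in Het (edgeR adjusted p = 1.33e-12). In total RNA it was lower than in WT by -0.07 ± 0.02 in Hom (edgeR adjusted p = 0.000766) and by -0.27 ± 0.02 in Het (edgeR adjusted p = 1.29e-26). With the deposited column of Total_WT replicate 1 the Hom value was no longer called (edgeR adjusted p = 0.0905). Hom against Het gave -0.06 ± 0.02 in nuclear RNA (edgeR adjusted p = 0.0320), which was not called without Nuclear_Het replicate 2 or 3 or Nuclear_Hom replicate 2 (edgeR adjusted p = 0.0736, 0.0799 and 0.0768). That call was also lost with RLE size factors (edgeR adjusted p = 0.0545), without the low-count filter (edgeR adjusted p = 0.0876) and with DESeq2 (adjusted p = 0.0539). In total RNA Hom against Het gave 0.19 ± 0.02 (edgeR adjusted p = 1.72e-17).

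Transcripts for 23 proteins of paraspeckles were counted beside Neat1. Of all genes tested, 30.5% were higher and 29.8% lower in nuclear than in total RNA of Hom. The shares were 33.4% and 30.2% in Het, and 30.9% and 30.8% in WT. In Nuclear_Het against Total_Het 13 were higher and 0 lower, among them Sfpq (156 and 128 CPM), a core paraspeckle protein that binds Neat1. In Nuclear_WT against Total_WT 7 were higher and 4 lower, where Neat1 was lower. In Nuclear_Hom against Total_Hom 6 were higher and 10 lower. Rbm3, a cold-induced RNA-binding protein on this list, averaged 98.3 CPM in Nuclear_Hom and 312 CPM in Total_Hom (log2 -1.67 ± 0.03, edgeR adjusted p = 1.21e-92). Proteins of nuclear speckles, the bodies that hold Malat1, had 8 of 25 transcripts higher and 11 lower in Nuclear_Hom against Total_Hom, 16 higher and 2 lower in Het, and 17 higher and 3 lower in WT. Srrm2, a large scaffold of these speckles, averaged 324 CPM in Nuclear_WT and 273 CPM in Total_WT (log2 0.25 ± 0.02, edgeR adjusted p = 1.69e-17), opposite in sign to Malat1. Of 17 mRNAs known to be held back in the nucleus, 6 were higher and 6 lower in Nuclear_Hom against Total_Hom, 12 and 3 in Het, and 10 and 3 in WT.

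Kcnq1ot1 differed between fractions by a larger fold than Malat1 and Neat1 in Het and WT, and not in Hom. This antisense transcript starts inside the gene Kcnq1 and silences neighbouring genes in cis on the paternal allele. Its libraries read 30.7, 26.8 and 27.1 CPM in Nuclear_Hom, against 28.5, 26.8 and 28.5 CPM in Total_Hom. They read 38.5, 37.5 and 42.0 CPM in Nuclear_Het, against 17.8, 20.4 and 20.1 CPM in Total_Het. They read 18.7, 20.4 and 18.7 CPM in Nuclear_WT, against 34.1, 33.3 and 32.2 CPM in Total_WT. Hom libraries of both fractions overlapped near 28 CPM, while the Het and WT libraries split completely and in opposite directions. The log2 differences of nuclear minus total RNA were 0.01 ± 0.06 in Hom (edgeR adjusted p = 0.877), 1.02 ± 0.06 in Het (edgeR adjusted p = 1.55e-33) and -0.79 ± 0.06 in WT (edgeR adjusted p = 4.65e-24). In nuclear RNA Kcnq1ot1 was higher than in WT by 0.55 ± 0.06 in Hom (edgeR adjusted p = 2.81e-12) and by 1.03 ± 0.06 in Het (edgeR adjusted p = 9.16e-28). In total RNA it was lower than in WT, at -0.24 ± 0.06 in Hom (edgeR adjusted p = 0.000103) and -0.77 ± 0.06 in Het (edgeR adjusted p = 4.16e-23). The total RNA value of Hom was not called with the deposited column of Total_WT replicate 1 (edgeR adjusted p = 0.0773). Hom was below Het in nuclear RNA (-0.48 ± 0.06, edgeR adjusted p = 4.83e-12) and above Het in total RNA (0.53 ± 0.06, edgeR adjusted p = 4.68e-13).

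Other transcripts and marker sums were set beside Kcnq1ot1, Malat1 and Neat1, and not all of them ran the same way. Cdkn1c, an imprinted cell cycle inhibitor beside Kcnq1ot1 and also a podocyte marker, averaged 61.5 CPM in Nuclear_Het and 16.5 CPM in Total_Het, 33.9 CPM in Nuclear_Hom and 41.3 CPM in Total_Hom, and 21.6 CPM in Nuclear_WT and 31.5 CPM in Total_WT. Cdkn1c was thus, like Kcnq1ot1, highest in Nuclear_Het and lowest in Total_Het and Nuclear_WT. Slc22a18, a transporter gene of the same domain, ran the other way in Het and WT, with 329 CPM in Nuclear_Het and 518 CPM in Total_Het (log2 -0.65 ± 0.02, edgeR adjusted p = 2.02e-57), and 543 CPM in Nuclear_WT and 351 CPM in Total_WT (0.63 ± 0.02, edgeR adjusted p = 8.40e-56). The 10 podocyte markers summed to 519 to 524 CPM per library in Nuclear_Hom and 632 to 647 CPM in Total_Hom, 582 to 590 CPM in Nuclear_Het and 410 to 414 CPM in Total_Het, and 495 to 511 CPM in Nuclear_WT and 623 to 649 CPM in Total_WT. The 10 proximal tubule markers summed to 34080 to 34527 CPM in Nuclear_Hom and 32255 to 32863 CPM in Total_Hom, 31768 to 32653 CPM in Nuclear_Het and 56196 to 57171 CPM in Total_Het, and 49808 to 51012 CPM in Nuclear_WT and 34321 to 34886 CPM in Total_WT. Nuclear_WT and Total_Het, the 2 groups with the highest tubule sums and the lowest podocyte sums, were also the 2 lowest in Neat1, Kcnq1ot1 and Malat1. Kap, an androgen-regulated tubule gene on that list, averaged 14531 CPM in Nuclear_WT and 22975 CPM in Total_Het, against 1610 to 5400 CPM in the other 4 groups. The part of these cell type markers in the results was not tested, and in bulk RNA fewer cells of a type and less RNA per cell cannot be told apart. Immune markers were highest in Nuclear_Het, with 1424 to 1501 CPM against 486 to 924 CPM in every other library.

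Of 24 neighbours of the members in the genome, 19 were tested between nuclear and total RNA. In Hom 5 were higher and 8 lower (30.5% and 29.8% of all genes), in Het 7 and 5 (33.4% and 30.2%), and in WT 6 and 6 (30.9% and 30.8%). Kcnq1, which overlaps Kcnq1ot1 on the other strand, averaged 31.6 CPM in Nuclear_Hom and 47.0 CPM in Total_Hom (log2 -0.57 ± 0.05, edgeR adjusted p = 3.78e-21), where Kcnq1ot1 did not pass the test. The strand setting of the counting is not given in the sources used here, so the split of reads between these overlapping genes is uncertain.

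**Figure D2:**
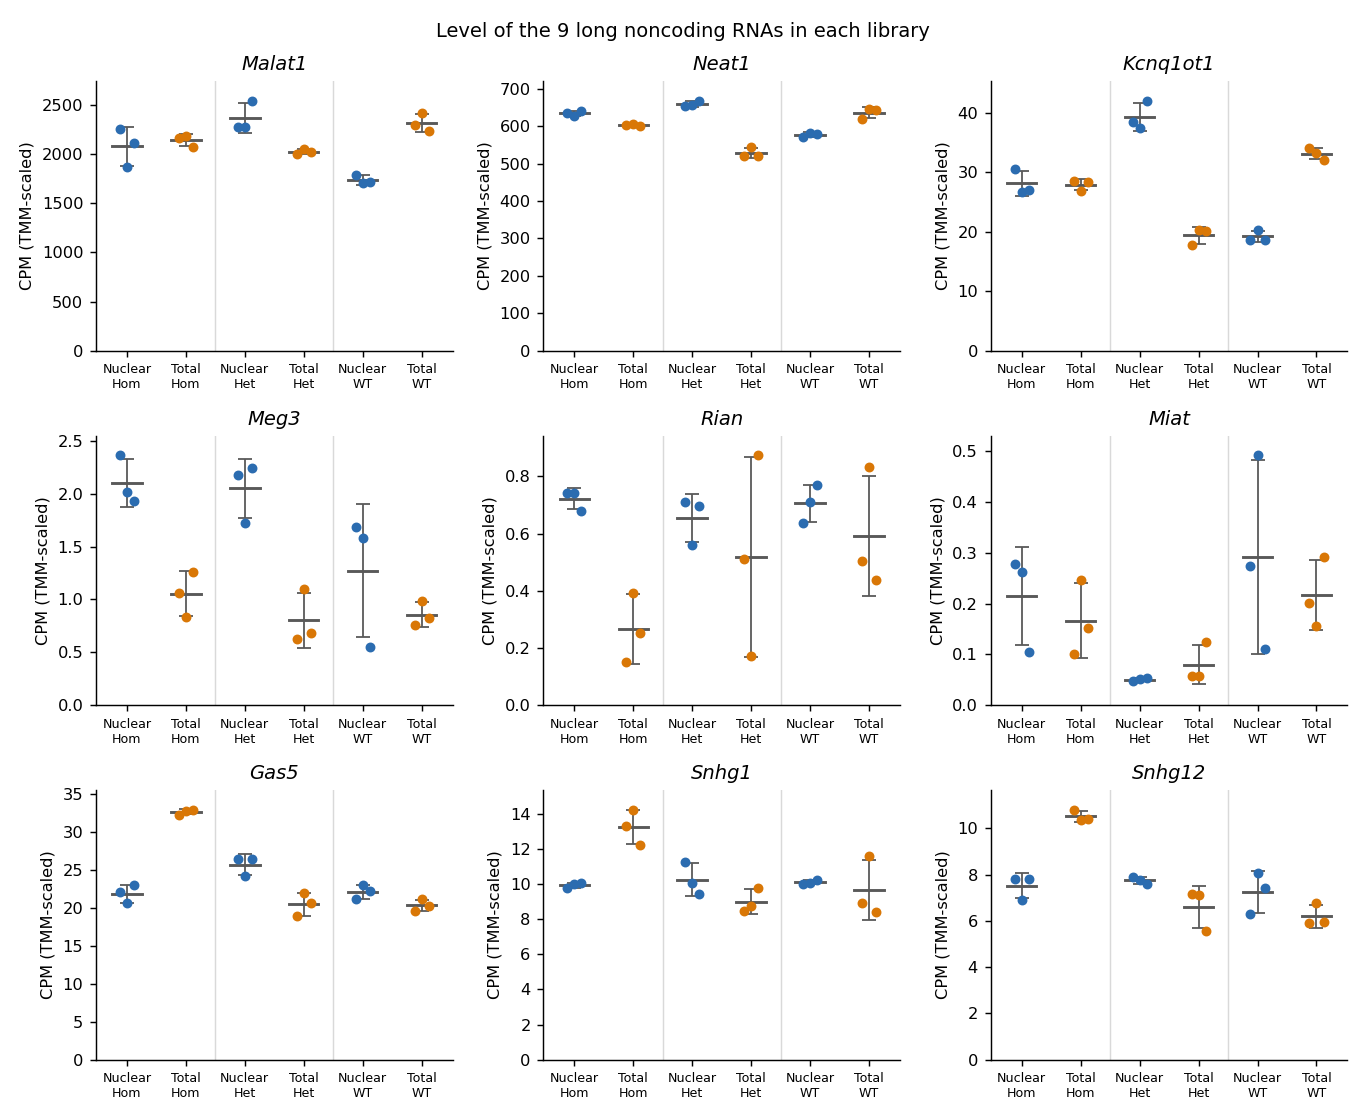
CPM of each long noncoding RNA in every library (points), with the group mean (bar) and SD (error bar, n = 3), for nuclear (blue) and total (orange) RNA of Hom, Het and WT. Kcnq1ot1 is lowest in Total_Het and Nuclear_WT, and Gas5, Snhg1 and Snhg12 stand highest in Total_Hom with no overlap with any other group. The share of all genes without such overlap was not counted.

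The other imprinted members were rare. Meg3, a noncoding RNA of the Dlk1 domain on chromosome 12, read 2.36, 2.01 and 1.93 CPM in Nuclear_Hom, against 1.06, 0.836 and 1.26 CPM in Total_Hom. It read 2.18, 1.73 and 2.25 CPM in Nuclear_Het, against 0.624, 1.10 and 0.686 CPM in Total_Het. It read 1.69, 1.58 and 0.549 CPM in Nuclear_WT, against 0.756, 0.989 and 0.828 CPM in Total_WT. The nuclear libraries lay above the total ones in Hom and Het, and in WT the fractions overlapped through Nuclear_WT replicate 3, which had 10 counts. The log2 differences were 0.995 ± 0.252 in Hom (edgeR adjusted p = 0.000303), 1.34 ± 0.28 in Het (edgeR adjusted p = 1.31e-05) and 0.59 ± 0.29 in WT (edgeR adjusted p = 0.0710). Without Nuclear_WT replicate 3 the WT value was 0.93 (edgeR adjusted p = 0.00465). In nuclear RNA, Meg3 was called higher in Hom and in Het than in WT (0.70 ± 0.24 and 0.66 ± 0.25, edgeR adjusted p = 0.0109 and 0.0151). Without Nuclear_WT replicate 3 these were 0.36 and 0.33 (edgeR adjusted p = 0.211 and 0.245), and DESeq2 called neither (adjusted p = 0.0600 and 0.0714). The Hom call of Meg3 was also lost without Nuclear_Hom replicate 1 (edgeR adjusted p = 0.0509), and the Het call without Nuclear_Het replicate 3 (edgeR adjusted p = 0.0503). The ratio of Meg3 in Het minus WT was not called (log2 0.75 ± 0.42, edgeR adjusted p = 0.101), and it was called without Nuclear_WT replicate 1 or Total_Het replicate 2 (edgeR adjusted p = 0.0374 and 0.0387).

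Rian, a snoRNA host of the same chromosome 12 domain, had 16, 17 and 13 counts in Nuclear_Hom, against 3, 8 and 5 counts in Total_Hom. It had 15, 11 and 13 counts in Nuclear_Het, against 9, 3 and 14 counts in Total_Het, and 14, 13 and 14 counts in Nuclear_WT, against 10, 16 and 9 counts in Total_WT. The fractions did not overlap in Hom and overlapped in Het and WT. Only the Hom difference was called among these 3 (log2 1.41 ± 0.44, edgeR adjusted p = 0.00341), and the ratio did not differ detectably between Hom and WT at this depth (1.16 ± 0.59, edgeR adjusted p = 0.0834), though it was called without Total_Hom replicate 2 (1.55, edgeR adjusted p = 0.0439). Without Total_Het replicate 2 the ratio of Rian was also called in Hom minus Het (1.47, edgeR adjusted p = 0.0325), where all libraries gave 1.06 ± 0.61 (edgeR adjusted p = 0.123). Miat had 6, 6 and 2 counts in Nuclear_Hom and 2, 5 and 3 counts in Total_Hom. It had 1 count in each Nuclear_Het library and 1, 1 and 2 counts in Total_Het, and 6, 9 and 2 counts in Nuclear_WT and 4, 3 and 6 counts in Total_WT. Its level was too low for a test in any comparison.

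The snoRNA hosts formed the other pattern. Spliced RNAs of such hosts commonly begin with a 5′ terminal oligopyrimidine tract, a run of C and T bases at the start of the RNA that couples translation to growth signals, and the start regions are shown because the 3 hosts moved together in total RNA. Each line gives 60 bases before and 40 from the annotated start on the plus strand of GRCm38.p6 (RefSeq), with the longest run of at least 6 C or T bases within 10 bases of the start in capitals, a definition chosen after seeing these windows.
Gas5 (chr1:161035106-161035205, the downstream of 2 annotated starts): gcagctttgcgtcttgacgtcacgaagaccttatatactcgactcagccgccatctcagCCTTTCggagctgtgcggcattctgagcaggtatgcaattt
Snhg1 (chr19:8723427-8723526): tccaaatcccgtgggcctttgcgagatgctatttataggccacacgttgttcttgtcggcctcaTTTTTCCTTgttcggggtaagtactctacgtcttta
Snhg12 (chr4:132308618-132308717): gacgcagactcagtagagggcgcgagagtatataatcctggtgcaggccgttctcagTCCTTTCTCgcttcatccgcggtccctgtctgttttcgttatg
Such a run was found in 30% of 32851 RefSeq promoters and in 8 of the 15 other noncoding snoRNA hosts with a promoter in that table. Rian and Miat had one too, while the upstream Gas5 start had none. The Snhg1 run began 4 bases after the annotated start. The palindromic motif TGACGTCA, bound by CREB and ATF factors, was found 46 bases before this Gas5 start and 57 bases before a start of Meg3, in 1 of the 15 other hosts and in 1.79% of all promoters of 300 bases. A match describes letters in a window and is not a measured binding site.

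Gas5, which carries many snoRNAs and whose name comes from growth arrest, was highest in Total_Hom. Its libraries read 22.0, 20.6 and 22.9 CPM in Nuclear_Hom, against 32.2, 32.8 and 32.9 CPM in Total_Hom. They read 26.5, 24.1 and 26.5 CPM in Nuclear_Het, against 18.9, 21.9 and 20.6 CPM in Total_Het. They read 21.1, 22.9 and 22.2 CPM in Nuclear_WT, against 19.5, 21.1 and 20.3 CPM in Total_WT. Total_Hom stood above every other library, Nuclear_Het came next without overlap, and the 4 remaining groups overlapped from neighbour to neighbour. Nuclear minus total RNA was log2 -0.58 ± 0.06 in Hom (edgeR adjusted p = 1.03e-16), 0.33 ± 0.07 in Het (edgeR adjusted p = 4.33e-06) and 0.12 ± 0.07 in WT (edgeR adjusted p = 0.103).

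Snhg1, host of several box C/D snoRNAs, read 9.77, 9.97 and 10.03 CPM in Nuclear_Hom, against 13.3, 14.2 and 12.2 CPM in Total_Hom. It read 11.3, 10.05 and 9.41 CPM in Nuclear_Het, against 8.46, 8.75 and 9.79 CPM in Total_Het, and 10.02, 10.04 and 10.2 CPM in Nuclear_WT, against 8.92, 11.6 and 8.43 CPM in Total_WT. Total_Hom lay above all other groups, and those others overlapped from neighbour to neighbour. Nuclear minus total RNA was log2 -0.42 ± 0.09 in Hom (edgeR adjusted p = 3.58e-05), while the Het (0.19 ± 0.10, edgeR adjusted p = 0.0887) and WT (0.07 ± 0.10, edgeR adjusted p = 0.567) values did not pass.

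Snhg12, another snoRNA host, read 7.83, 6.91 and 7.83 CPM in Nuclear_Hom, against 10.8, 10.4 and 10.4 CPM in Total_Hom. It read 7.90, 7.77 and 7.59 CPM in Nuclear_Het, against 7.15, 7.12 and 5.55 CPM in Total_Het, and 6.29, 8.08 and 7.41 CPM in Nuclear_WT, against 5.89, 6.77 and 5.94 CPM in Total_WT. It had the order of the other hosts at its top, Total_Hom first without overlap. Nuclear minus total RNA was log2 -0.49 ± 0.10 in Hom (edgeR adjusted p = 1.67e-05), 0.23 ± 0.12 in Het (edgeR adjusted p = 0.0789) and 0.22 ± 0.12 in WT (edgeR adjusted p = 0.0907). Leaving out a single library gave an edgeR adjusted p under 0.05 for Snhg12 in WT (0.0231 without Nuclear_WT replicate 1) and in Het (0.0497 without Total_Het replicate 1), and for Snhg1 in Het (0.0447 without Nuclear_Het replicate 3 and 0.0448 without Total_Het replicate 3). Both Het values were also called among genes of at least 5 CPM (edgeR adjusted p = 0.0458 for Snhg1 and 0.0378 for Snhg12) and with library totals alone (edgeR adjusted p = 0.000287 and 0.000637).

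The genotype comparisons put the largest differences of Gas5, Snhg1 and Snhg12 in total RNA of Hom. In Total_Hom against Total_WT, 3 of 7 tested members were higher, the 3 snoRNA hosts, and 3 were lower, Malat1, Neat1 and Kcnq1ot1, with 61.6% of all genes called, 30.6% higher and 31% lower. The log2 differences there were 0.69 ± 0.06 for Gas5 (edgeR adjusted p = 4.52e-20), 0.47 ± 0.10 for Snhg1 (edgeR adjusted p = 8.46e-06) and 0.77 ± 0.11 for Snhg12 (edgeR adjusted p = 1.70e-10). In Total_Hom against Total_Het, matched for Xist, 5 of 7 were higher and 0 lower, with 67% of all genes called, 32.9% higher and 34.1% lower, and the values were 0.68 ± 0.06 for Gas5 (edgeR adjusted p = 5.60e-19), 0.57 ± 0.10 for Snhg1 (edgeR adjusted p = 2.09e-07) and 0.67 ± 0.11 for Snhg12 (edgeR adjusted p = 2.32e-08). Without Total_Hom replicate 2, the library with the large Rn45s share, Gas5 still gave 0.69 against WT and 0.67 against Het. In these fits 8 members were tested, with 3 higher and 4 lower against WT, and 6 higher and 0 lower against Het. In Total_Het against Total_WT, 0 members were higher and 3 lower, Malat1, Neat1 and Kcnq1ot1, with 61.1% of all genes called, 30.9% higher and 30.3% lower. The Gas5 value there was 0.01 ± 0.07 (edgeR adjusted p = 0.894) and -0.17 with library totals alone (edgeR adjusted p = 0.0449).

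With TMM scaling, Gas5 alone of the 3 hosts was called between genotypes in nuclear RNA, while with library totals alone Snhg1 and Snhg12 were called in Het against WT too (edgeR adjusted p = 0.0414 and 0.0159). In Nuclear_Hom against Nuclear_WT, 4 of 8 tested members were higher and 0 lower, with 54.3% of all genes called, 26.5% higher and 27.8% lower, and Gas5, Snhg1 and Snhg12 were not among the 4. Gas5 was at -0.01 ± 0.07 (edgeR adjusted p = 0.865), Snhg1 at -0.02 ± 0.09 (edgeR adjusted p = 0.853) and Snhg12 at 0.06 ± 0.11 (edgeR adjusted p = 0.668). In Nuclear_Het against Nuclear_WT, 5 of 8 were higher and 0 lower, with 64.6% of all genes called, 32.8% higher and 31.7% lower, and Gas5 was among them (0.22 ± 0.06, edgeR adjusted p = 0.00170). In Nuclear_Hom against Nuclear_Het, 0 were higher and 3 lower, Neat1, Kcnq1ot1 and Gas5, with 43.2% of all genes called, 21.4% higher and 21.8% lower. Of 17 other snoRNA hosts, 8 were higher and 1 lower in Nuclear_Hom against Nuclear_WT, led in level by Snhg11 (91.7 and 78.9 CPM). In Nuclear_Het against Nuclear_WT 9 of the 17 were higher and 1 lower, and in Nuclear_Hom against Nuclear_Het 1 was higher and 0 lower. These other hosts thus leaned higher than WT in nuclear RNA too.

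Among other noncoding snoRNA hosts the counts leaned the same way in total RNA of Hom. Of 17 tested, 12 were higher and 1 lower in Total_Hom against Total_WT, with a median log2 of 0.56, while 30.6% of all genes were higher and the median of all was near 0. Against Total_Het, 13 were higher and 2 lower, with a median of 0.58, while 32.9% of all genes were higher. In Total_Het against Total_WT 2 were higher and 6 lower, where 30.9% of all genes were higher and 30.3% lower. Zfas1 averaged 26.6 CPM in Total_Hom, 11.4 CPM in Total_Het and 11.96 CPM in Total_WT (log2 1.23 ± 0.08 against Het and 1.16 ± 0.08 against WT). Snhg8 averaged 35.1 CPM in Total_Hom, 15.3 CPM in Total_Het and 20.2 CPM in Total_WT (log2 1.202 ± 0.067 against Het and 0.80 ± 0.06 against WT). Snhg11 averaged 80.4 CPM in Total_Hom, 79.95 CPM in Total_Het and 68.4 CPM in Total_WT, which was called against WT (log2 0.24 ± 0.04, edgeR adjusted p = 1.17e-09) and not against Het (0.02 ± 0.04, edgeR adjusted p = 0.719). Snhg18 was lower in Total_Hom (24.03 CPM) than in Total_Het (27.9 CPM) and Total_WT (30.9 CPM), at log2 -0.20 ± 0.06 (edgeR adjusted p = 0.00246) and -0.36 ± 0.06 (edgeR adjusted p = 6.58e-08). In Nuclear_Hom against Total_Hom 2 hosts were higher and 9 lower (30.5% and 29.8% of all genes). In Het 8 were higher and 0 lower (33.4% and 30.2%), and in WT 4 were higher and 5 lower (30.9% and 30.8%). For the nuclear-to-total ratio in Hom minus WT, 2 of the 17 were higher and 5 lower, where 28.4% of all genes were higher and 27.7% lower. In Hom minus Het, 1 was higher and 8 lower, where 31.7% of all genes were higher and 31.9% lower. Without Total_Hom replicate 2, 11 were higher against WT, 12 higher against Het, and 9 lower in nuclear against total RNA of Hom. Among genes of at least 5 CPM, a filter that left out hosts of lower level, the counts were 7, 7 and 5. They cannot be read as counts out of 17.

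**Figure D3:**
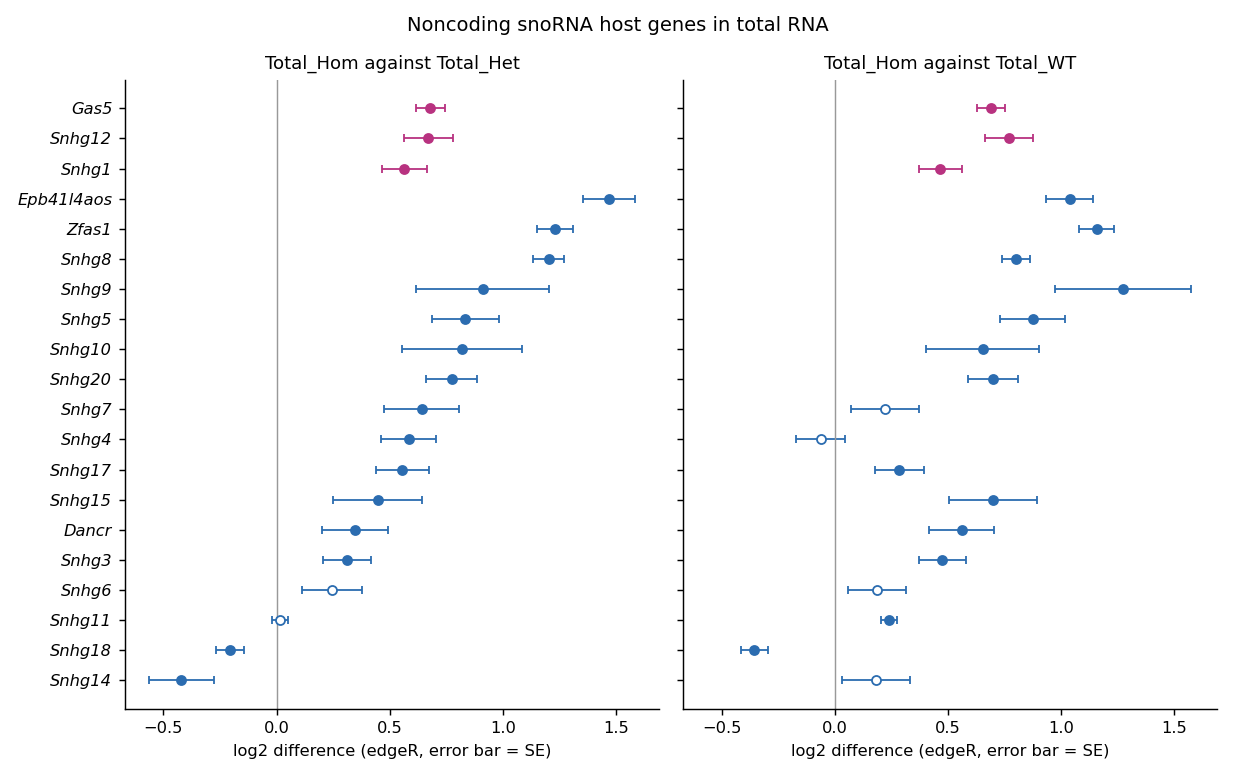
Log2 difference of Total_Hom against Total_Het and against Total_WT for Gas5, Snhg12 and Snhg1 (pink) and 17 other noncoding snoRNA hosts (blue), as points with their SE; filled points passed the adjusted p threshold of 0.05. Most hosts lie to the right of 0 in both panels, and Snhg18 lies to the left in both.

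Lists outside the hosts were counted in Total_Hom too, where 30.6% of all genes were higher and 31% lower against Total_WT, and 32.9% and 34.1% against Total_Het. Of 17 abundant cytoplasmic mRNAs, 11 were higher and 3 lower in Total_Hom against Total_WT. They were led by Eef1a1 (7329 and 5080 CPM), Eef2 (3016 and 1953 CPM), Tpt1 (1877 and 1270 CPM) and Rpl13a (1196 and 825 CPM). These encode translation factors, a ribosomal protein and a growth-related protein. They are known oligopyrimidine mRNAs, but that family was not tested as a list. Against Total_Het 10 of the 17 mRNAs were higher and 6 lower. The 17 factors of nonsense-mediated decay had 7 higher and 3 lower in Total_Hom against Total_WT and 4 higher and 4 lower against Total_Het. Upf1, the central helicase of this decay, averaged 71.4 CPM in Total_Hom and 88.7 CPM in Total_Het (log2 -0.31 ± 0.03, edgeR adjusted p = 3.57e-15). Proteins of paraspeckles had 14 of 23 transcripts higher and 5 lower in Total_Hom against Total_WT, with Rbm3 at 312 and 79.98 CPM (1.97 ± 0.03, edgeR adjusted p = 6.85e-105). Of 20 other long noncoding RNAs tested, 9 were higher and 5 lower there, among them Firre, an X-linked nuclear RNA, at 57.8 and 33.8 CPM, and Mir22hg, the host of a microRNA, at 27.5 and 15.6 CPM. Against Total_Het 7 of these RNAs were higher and 5 lower, with a median log2 of -0.02, where the median against Total_WT was 0.39. Endothelial markers summed to 920 to 943 CPM per library in Total_Hom, 667 to 680 CPM in Total_Het and 854 to 876 CPM in Total_WT. Proximal tubule markers summed to 32583, 56645 and 34598 CPM as means of these 3 groups, and podocyte markers to 638, 411 and 638 CPM. Immune markers summed to 913, 924 and 760 CPM. Total_Hom and Total_Het were thus matched for Xist but not for tubule, podocyte and endothelial markers. The part of these markers in the host result was not tested.

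**Figure D4:**
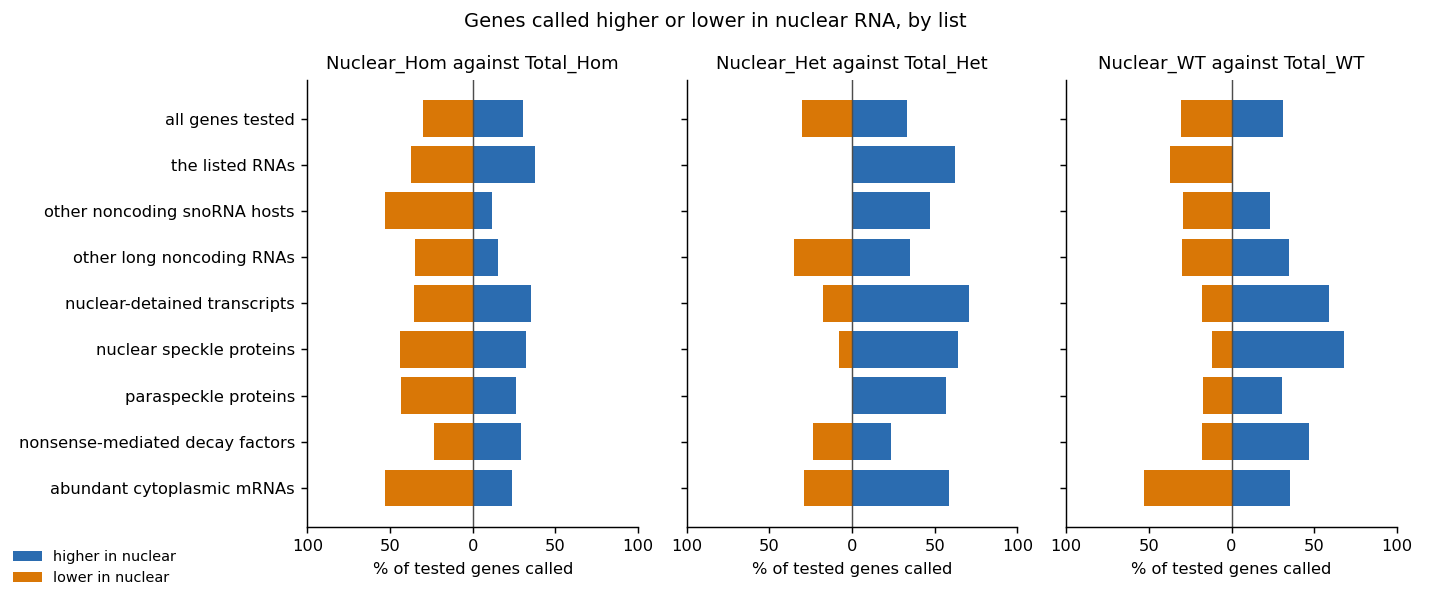
Percent of the tested genes of each list called higher (blue, to the right) or lower (orange, to the left) in nuclear than in total RNA of Hom, Het and WT, at an adjusted p under 0.05. Among other snoRNA hosts 9 of 17 are lower in Hom and 8 of 17 higher in Het, while among nuclear speckle proteins 17 of 25 are higher in WT.

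The difference of the nuclear-to-total ratio between genotypes was tested directly as an interaction. Relative to WT, the ratio in Hom was higher for 3 of 8 members and lower for 3, with 56.1% of all genes called, 28.4% higher and 27.7% lower. In Het minus WT it was higher for 4 and lower for 0, with 70.7% called, 37.8% higher and 32.9% lower. In Hom minus Het 0 were higher and 6 lower, with 63.6% called, 31.7% higher and 31.9% lower. Kcnq1ot1 had the largest called difference among the members in these 3 comparisons, at 0.80 ± 0.09 for Hom minus WT, 1.80 ± 0.09 for Het minus WT and -1.01 ± 0.09 for Hom minus Het. The hosts had lower ratios in Hom than in WT, at -0.70 ± 0.09 for Gas5, -0.48 ± 0.14 for Snhg1 and -0.71 ± 0.16 for Snhg12, and lower ratios than in Het, at -0.91 ± 0.09 for Gas5, -0.61 ± 0.14 for Snhg1 and -0.71 ± 0.16 for Snhg12. The Gas5 difference between Het and WT (0.21 ± 0.09, edgeR adjusted p = 0.0375) was not called with DESeq2 (adjusted p = 0.115), without the low-count filter (edgeR adjusted p = 0.0634) or without any one of 6 libraries, with edgeR adjusted p of 0.112 without Nuclear_WT replicate 1, 0.0886 and 0.0796 without Nuclear_Het replicates 1 and 3, 0.0960 and 0.0547 without Total_WT replicates 2 and 3, and 0.146 without Total_Het replicate 1.

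Over the 18 libraries, correlation of log2 CPM gave the same sets for Malat1, Neat1 and Kcnq1ot1 and for Gas5, Snhg1 and Snhg12. It is given as a description, since libraries share their groups and it restates the group means. Kcnq1ot1 had r = 0.89 with Neat1 and r = 0.84 with Malat1, and Malat1 had r = 0.60 with Neat1. Gas5 had r = 0.90 with Snhg12 and r = 0.83 with Snhg1, and r = 0.21 with Malat1, 0.26 with Neat1 and 0.31 with Kcnq1ot1. Meg3 had r = 0.57 with Neat1. Rian and Miat joined neither set, with highest values of r = 0.23 (Rian with Meg3) and r = 0.18 (Miat with Rian). Among 11520 genes of at least 5 CPM, with predicted gene models passed over, those most like Malat1 were Ccdc88a (r = 0.92), Ahr (r = 0.91) and Tcf4 (r = 0.91). Those most like Neat1 were Gsto1 (r = 0.97), Akr1c19 (r = 0.97) and Spp1 (r = 0.96), and those most like Gas5 were Rapgef6 (r = 0.96), Tmpo (r = 0.95) and Maff (r = 0.95).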

How the data were processed

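TRIzol extraction and a KAPA Stranded mRNA-Seq kit are stated per the labels' protocols. The submitters' processing notes name mm9, STAR 2.5.2b, CASAVA, DESeq2 and featureCounts, without order or settings. The annotation and strand setting are not given in the sources used here. The authors deposited raw counts by gene symbol. Their length column was used here only for levels per kilobase. The deposited column of Total_WT replicate 1 held 10.2 times the mean of the other 17 libraries. It was at or above the summed nuclear columns (181106189 counts) for every gene, and that sum was subtracted. Reads carry no molecular identifiers.

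Counts were tested with edgeR 4.0.16 under R 4.3.3 (TMM, filterByExpr, robust glmQLFit and glmQLFTest), with Benjamini-Hochberg adjustment over all genes tested and a threshold of 0.05. A fit of all 18 libraries (15410 genes, biological coefficient of variation 3.54%) gave nuclear against total RNA and the ratio differences. Fits of 9 libraries compared genotypes within nuclear (15112 genes) and total RNA (15051 genes). The code was tested on simulated data. Log2 values are ± SE, and CPM are given for each library or as the mean of 3.

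The members and lists were chosen with earlier results of these data known. Named were the members and up to 4 called genes with the smallest p per list and comparison. The 3 genes most like Malat1, Neat1 and Gas5 (Pearson r) were named too, with predicted gene models passed over. Kap, and Snhg11 and Snhg18 in total RNA of Hom, were named after seeing their values. Thick ascending limb and collecting duct markers summed to 7262 to 11710 CPM as group means, and mesangial and juxtaglomerular markers to 39.4 to 59.9 CPM, with Ren1 at 0 in 5 of the 6 groups. The alternatives were RLE size factors, library totals, other low-count filters, the replicate block, Rn45s removed, the deposited column kept, other sets of samples, DESeq2 1.42.0 and each library left out. List counts without Total_Hom replicate 2 were chosen after seeing the data. Promoters come from RefSeq (GRCm38.p6).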

Additional observations from a re-analysis of the deposited data

Results flagged for a closer look

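The nuclear-to-total ratio differed between genotypes for the following members, by a direct test of the interaction in edgeR over all 18 libraries. In Hom minus WT the log2 difference was 0.37 for Malat1 (adjusted p = 0.00247), 0.21 for Neat1 (adjusted p = 5.05e-11), 0.80 for Kcnq1ot1 (adjusted p = 1.65e-15), -0.70 for Gas5 (adjusted p = 4.20e-12), -0.48 for Snhg1 (adjusted p = 0.00115) and -0.71 for Snhg12 (adjusted p = 3.63e-05), in edgeR. In Het minus WT it was 0.64 for Malat1 (adjusted p = 1.84e-05), 0.46 for Neat1 (adjusted p = 1.14e-32), 1.80 for Kcnq1ot1 (adjusted p = 2.96e-43) and 0.21 for Gas5 (adjusted p = 0.0375), in edgeR. In Hom minus Het it was -0.27 for Malat1 (adjusted p = 0.0169), -0.25 for Neat1 (adjusted p = 7.08e-14), -1.01 for Kcnq1ot1 (adjusted p = 9.72e-22), -0.91 for Gas5 (adjusted p = 4.31e-18), -0.61 for Snhg1 (adjusted p = 4.53e-05) and -0.71 for Snhg12 (adjusted p = 2.44e-05), in edgeR. In Hom and Het the nuclear libraries were the ones with high Xist, and in WT the total libraries were, so sex cannot be told apart from genotype and fraction in the Hom minus WT and Het minus WT values. In Hom minus Het the groups were matched for Xist within each fraction.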

How the results depend on the processing

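Of 806 log2 values of members under other settings, 771 kept direction and side of the threshold, 14 lost the call, 20 gained it and 1 reversed. That one was Gas5 in Total_Het minus Total_WT, -0.17 with library totals alone (edgeR adjusted p = 0.0449). With library totals alone 7 members were called for the ratio in Het minus WT, where 4 were called as reported, and 5 in Total_Het minus Total_WT, where 3 were. Leaving out 1 library gave 2 to 4 called members in Nuclear_Hom minus Nuclear_WT, 2 without Nuclear_WT replicate 3 or Nuclear_Hom replicate 1. Library totals shifted the median of all genes by more than 0.1 in 9 of the 12 comparisons, by 0.20 in Het and -0.16 in WT for nuclear minus total RNA and by 0.36 for the ratio of Het minus WT. With the replicate block, the called members equalled the reported counts in 11 of the 12 comparisons, for example 6 in Nuclear_Hom minus Total_Hom (9267 genes in all), and were 6 in place of 5 in Total_Hom minus Total_Het. Same-numbered libraries correlated between -0.12 and 0.11, so the numbers were not taken as pairs. Counts of 1 to 17 per library limit Rian and Miat.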
